A study of Rattus norvegicus with 32 samples.

Results

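Lungs taken late after a hemorrhage, at 24, 48 and 72 h, were set against lungs taken early, at 1, 3 and 6 h. The 20 arrays were chosen by the time in their titles, out of 32 in the series. The late lungs gave 9 arrays, 3 at each time, and the early lungs gave 11, with 3 at 1 h, 3 at 3 h and 5 at 6 h. Each time had the same weight, so a late or early level is the mean of 3 time means. No sham array entered this comparison. All bled animals were male Sprague-Dawley rats of 280 to 300 g that carried a pair of arterial catheters, had recovered for 7 to 10 days, and then lost 40% of their estimated blood volume. Neither their age nor a genotype beyond the strain is stated. Sham rats (6 arrays) had the same surgery without bleeding, and 3 control arrays came from rats with no instruments. Sham lungs are used only to place the late and early levels. Control lungs are compared with no group, but they add to the estimate of spread in the fit over all 32 arrays.

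Each array compared RNA of a lung with a pool of rat organ RNA, which the labels describe as 10 organs while naming 9. Values are log2 ratios, taken as lung to pool because lung genes lay above the pool. A level of 0 thus equals the pool and a difference of 1 is a doubling. Levels of different genes are not comparable, because each is relative to the same gene in the pool. The comparison asks how the lung transcriptome in the days after blood loss differed from that in the first hours. Late lungs were taken a whole number of days after bleeding and early lungs were not. The hour of bleeding is not given in the sources used here, so time of day and time after hemorrhage cannot be told apart.

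The lung is the bed through which all returning blood passes, and blood loss followed by recovery is a known setting for lung injury. Its airways are lined by club and ciliated cells, and its air sacs by flat type I cells, across which gas moves, and by type II cells, which make surfactant. Capillary endothelium, resident macrophages and marginated neutrophils make up most of the rest. In bulk lung RNA, fewer cells of a type and less RNA per cell cannot be told apart.

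Lung RNA was recognisable on each of the 20 arrays, given a sign of the ratio that was itself read from lung genes. The side of the pool on which lung genes lie is therefore no check of that sign. Sftpc, the gene of surfactant protein C, stood above the pool on 20 of 20 arrays with a mean level of 2.86 ± 0.97 (SD, n = 20). Ager, a receptor abundant on type I cells, did so on 20 of 20 with 1.76 ± 0.45. Alb, the liver gene of albumin, averaged -2.64 ± 1.20. Per array 12164 to 12812 of 13056 spots carried a value, and the number of arrays limits the precision. Median correlations of an array with the other 19 were 0.478 to 0.639, except for 3 h replicate 2 at 0.283. Pairs of arrays from the same time correlated at a median of 0.616, pairs from late and early times at 0.509. The labels do not number the animals, so the p-values measure the spread between these samples, which may be technical.

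Of 6082 features tested, 246 (4.04%) were called, meaning an adjusted p under 0.05 with limma and Benjamini-Hochberg adjustment. Of these, 98 (1.61%) were higher and 148 (2.43%) lower in late than in early lungs. Counts of called genes in the lists below are to be read beside these shares. Called differences had a median of 0.74 among the higher and -0.78 among the lower features, beside a median of 0.00 over all features. Only 16 of the higher and 34 of the lower reached 1 log2 unit. With an unadjusted p under 0.05 there were 647 higher and 742 lower. A single symbol named 88 of the higher and 133 of the lower features, and the other 10 and 15 are left unnamed.

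**Figure D1:**
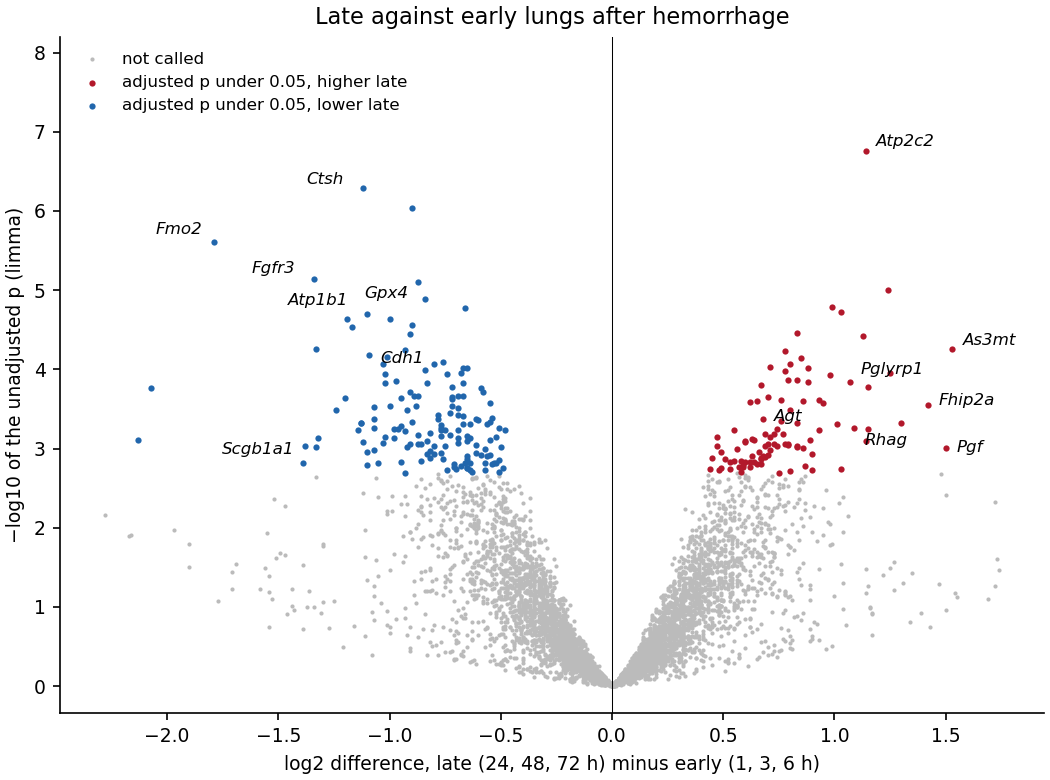
Difference of late (24, 48, 72 h) minus early (1, 3, 6 h) lungs in log2 units (x axis) against minus log10 of the unadjusted limma p (y axis), 1 point per feature. Red points (98) were called higher and blue points (148) lower in late lungs; Atp2c2 has the smallest p, and Fmo2 has the lowest difference of the called genes with a symbol.

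The number of calls rested on which arrays and times took part. Leaving out 1 array gave 88 to 439 calls. The count moved by more than 1.5 times in 10 of 20 omissions: the count was 136 without 1 h replicate 2, 157 without 1 h replicate 3 and 153 without 6 h replicate 2. Of the 24 h arrays, omitting replicate 1 gave 439, replicate 2 gave 146 and replicate 3 gave 100. Omitting 48 h replicate 1 gave 88, 48 h replicate 3 gave 122, 72 h replicate 2 gave 91 and 72 h replicate 3 gave 107. Without a whole time it was 17 (1 h), 229 (3 h), 25 (6 h), 569 (24 h), 61 (48 h) and 5 (72 h). Of the 246 features, 66 kept the call in each of the 20 omissions of 1 array, and 246 kept their direction with each time left out. Of the 246, 3 kept the call whichever time was left out: Atp2c2, Ctsh and Fmo2.

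Airway and alveolar epithelial genes held some of the largest falls. The monooxygenase gene Fmo2 and the club cell secretory gene Scgb1a1 were 3.46-fold and 2.60-fold lower in late lungs. Ctsh and Hopx, known from type II and type I cells, were 2.17-fold and 2.19-fold lower. The gene of E-cadherin, Cdh1, was lower as well, while most other members of the epithelial lists did not pass the test. The levels of these genes on each array are drawn with Atp1b1, Fgfr3 and Gpx4.

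**Figure D2:**
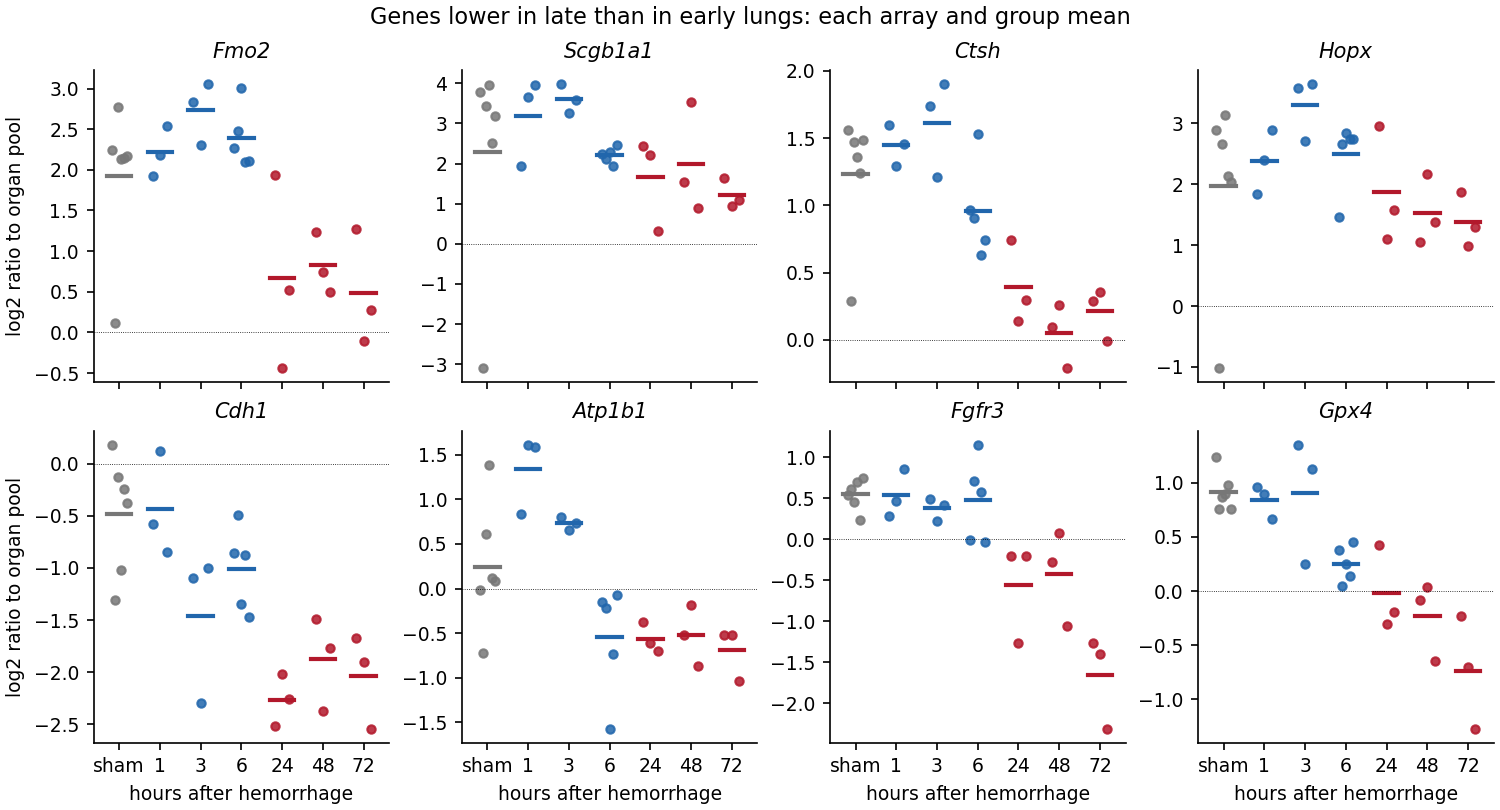
Level of 8 genes that were lower in late lungs, as the log2 ratio to the organ pool (y axis, scaled for each gene), by hours after hemorrhage with sham at the left (x axis). Points are arrays (blue for 1, 3 and 6 h, red for 24, 48 and 72 h, grey for sham) and bars are group means; for Fmo2 the late arrays reach 1.94, just past the lowest early array at 1.93, and 1 sham array lies far below the other 5 for Fmo2, Scgb1a1, Ctsh and Hopx.

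Fmo2 encodes a flavin-containing monooxygenase, an enzyme of foreign compound metabolism that is abundant in the lungs of many mammals. Its level was -0.44 at the lowest, 0.52 at the median and 1.94 at the highest in the 9 late lungs, against 1.93, 2.30 and 3.05 in the 11 early lungs. The ranges touch at a single late array, 24 h replicate 1. The difference was -1.79 ± 0.26 (SE; adjusted p = 0.00374). Scgb1a1 encodes the main secretory protein of club cells. It had a lowest, median and highest level of 0.32, 1.53 and 3.54 in late lungs, against 1.94, 2.47 and 3.97 in early lungs, with a difference of -1.38 ± 0.35 (adjusted p = 0.0347). Late and early ranges of Scgb1a1 overlapped widely, and its call held in 9 of 20 omissions of 1 array, with the highest adjusted p (0.0717) without 24 h replicate 3. Fmo2 kept its call in 20 of 20. These were the called members of 10 club and ciliated airway genes, 5 of which lay below 0 with a list median of -0.02. Cyp2f4, a cytochrome of club cells, stood at a difference of -0.03 (adjusted p = 0.943), and Cyp4b1, another lung cytochrome, at -0.56 (adjusted p = 0.108).

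The promoters of Fmo2, Scgb1a1 and, for contrast, of Pglyrp1, a gene that was higher in late lungs, are shown. The first pair are lung genes that were each called lower in late lungs. The sequences are from RefSeq on GRCr8, run from 250 bases before to 50 after the gene's start, and were matched by symbol. Capitals mark matches to CTCAAG, a core that NKX2-1, a factor of lung epithelium, can bind, and to TTGCNNAA, a core of C/EBP factors. Both strands were searched and no match overlaps another. The genes and motifs were chosen after a search of several motifs in more promoters had been seen.
Fmo2, chr13:77777485-77777784, minus strand: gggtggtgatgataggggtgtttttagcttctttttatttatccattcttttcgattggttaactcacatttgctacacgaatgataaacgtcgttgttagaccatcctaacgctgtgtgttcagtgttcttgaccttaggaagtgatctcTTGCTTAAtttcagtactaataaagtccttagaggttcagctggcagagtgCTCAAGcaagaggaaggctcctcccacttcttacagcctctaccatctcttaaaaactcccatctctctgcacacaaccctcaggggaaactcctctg
Scgb1a1, chr1:215409637-215409936, minus strand: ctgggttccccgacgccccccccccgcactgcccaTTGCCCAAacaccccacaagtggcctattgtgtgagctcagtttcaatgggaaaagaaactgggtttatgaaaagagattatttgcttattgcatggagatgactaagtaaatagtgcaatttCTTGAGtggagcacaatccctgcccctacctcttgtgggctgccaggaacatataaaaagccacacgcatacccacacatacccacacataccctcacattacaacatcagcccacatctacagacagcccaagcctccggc
Pglyrp1, chr1:87659613-87659912, plus strand: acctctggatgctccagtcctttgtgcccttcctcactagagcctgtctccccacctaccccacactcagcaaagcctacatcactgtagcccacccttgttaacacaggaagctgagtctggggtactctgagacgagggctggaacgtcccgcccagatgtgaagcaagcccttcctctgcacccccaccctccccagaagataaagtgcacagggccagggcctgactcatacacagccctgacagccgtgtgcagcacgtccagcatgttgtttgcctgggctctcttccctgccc
In Fmo2 the CTCAAG match begins 48 bases and the TTGCNNAA match 99 bases before the start. In Scgb1a1 the first, read on the other strand as CTTGAG, begins 92 bases and the other 215 bases before the start, and the Pglyrp1 window holds neither. CTCAAG occurs in 15.8% and TTGCNNAA in 10.6% of all 33469 promoters in the table, and both in 1.80%. Among called genes with a promoter in the table, CTCAAG was in 8.33% of 108 lower and 12.1% of 66 higher genes, and TTGCNNAA in 12% and 9.09%. The shares among 4077 tested genes were 13.5% and 9.71%. A match is a description of these letters and says nothing of binding.

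Among 14 type II cell and surfactant genes, 10 lay below 0 and the median difference was -0.28, while 3067 of all 6082 features (50.4%) lay below 0. The called member was Ctsh, the lysosomal protease cathepsin H, which takes part in the maturation of surfactant protein B. Its level was -0.21, 0.26 and 0.74 (lowest, median, highest) in late lungs, against 0.63, 1.29 and 1.90 in early lungs. The difference was -1.12 ± 0.15 (adjusted p = 0.00158), and only the top late array, from 24 h, reached into the early range. By time its mean was 1.45, 1.62 and 0.96 at 1, 3 and 6 h, and 0.39, 0.05 and 0.21 at 24, 48 and 72 h. The surfactant protein genes themselves were not called. Sftpa1 stood at a difference of -0.83 (adjusted p = 0.0699), Sftpc at -0.86 (adjusted p = 0.121), Sftpd at -0.63 (adjusted p = 0.175) and Sftpb at -0.54 (adjusted p = 0.0966), all chosen after their values were seen. The mean level of the type II list per array ran from 0.47 to 1.17 in late and from 0.73 to 1.51 in early lungs, so the groups overlapped.

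Of 8 type I cell genes, 6 lay below 0 with a median difference of -0.17, and 1 was called. Hopx, a homeodomain-only protein known from type I cells and their precursors, had a level of 0.98, 1.38 and 2.95 in late lungs, against 1.47, 2.74 and 3.64 in early lungs. Its difference was -1.13 ± 0.26 (adjusted p = 0.0294), and the call held in 13 of 20 omissions of 1 array (highest adjusted p 0.0620, without 24 h replicate 3). The other 7 were not called and ran from -0.31 for Icam1, an adhesion molecule, to 0.10 for Clic5, with adjusted p-values of 0.499 to 0.848. Ager stood at -0.07, Akap5 at 0.07, Aqp5, a water channel, at -0.19 and Pdpn, podoplanin, at -0.21.

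Cadherins and tight junction proteins seal the epithelium. Of 19 such genes 2 were lower and 1 higher, beside 2.43% and 1.61% of all features. Their median difference was -0.17. Cdh1 had a level of -2.54, -2.02 and -1.49 in late lungs, against -2.29, -0.88 and 0.12 in early lungs. The lowest early array, from 3 h, lay among the late ones, and the other early arrays lay above every late array. The difference was -1.09 ± 0.21 (adjusted p = 0.0167), and Cdh1 kept its call in 20 of 20 omissions of 1 array. Cldn7, a claudin of epithelia, differed by -0.64 ± 0.15 (adjusted p = 0.0294), while its 24 h arrays, at 0.32, 0.11 and -0.47, lay within the early range. Cldn11, a claudin best known from myelin and testis, was higher by 0.80 ± 0.18 (adjusted p = 0.0248). The Cldn7 call held in 14 of 20 omissions (highest adjusted p 0.0624, without 72 h replicate 3) and that of Cldn11 in 18 (0.0554, without 48 h replicate 1).

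Fluid is cleared from the air sacs by sodium transport, which the sodium pump drives. Its beta 1 subunit gene, Atp1b1, and the anion exchanger Slc4a2 were the called members of 26 ion and water transport genes, whose median difference was -0.07. Atp1b1 had a level of -1.04, -0.52 and -0.18 in late lungs, against -1.57, 0.66 and 1.61 in early lungs, a difference of -1.10 ± 0.19 (adjusted p = 0.0101). Its means by time were 1.34 and 0.73 at 1 and 3 h and -0.55 at 6 h, close to the late means of -0.56, -0.52 and -0.69 at 24, 48 and 72 h. The test for differences among 1, 3 and 6 h gave Atp1b1 an adjusted p of 0.0655, which is no call, and passed in 1 of 20 omissions of 1 array (highest adjusted p 0.192, without 1 h replicate 2). Slc4a2 differed by -0.75 ± 0.18 (adjusted p = 0.0301), with its call lost in 5 of 20 omissions of 1 array (highest adjusted p 0.0649, without 24 h replicate 3). Its means were 0.13, -0.03 and -0.09 at 1, 3 and 6 h, and -0.79, -0.81 and -0.64 at 24, 48 and 72 h.

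Fgfr3 and Adcy4 were among the 12 genes with the largest falls. Fgfr3, a receptor for fibroblast growth factors, had a level of -2.31, -1.06 and 0.07 in late lungs, against -0.03, 0.47 and 1.15 in early lungs. The difference was -1.34 ± 0.21 (adjusted p = 0.00809). A single late array, from 48 h, lay above the lowest early arrays. Its early means were alike, at 0.54, 0.38 and 0.48 for 1, 3 and 6 h, and its late means were -0.56, -0.43 and -1.66 for 24, 48 and 72 h. Adcy4, an adenylyl cyclase that makes cyclic AMP, had a level of -0.94, -0.10 and 0.45 in late lungs, against 0.39, 1.03 and 1.74 in early lungs, a difference of -1.17 ± 0.21 (adjusted p = 0.0110). Both genes kept their calls in 20 of 20 omissions of 1 array.

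Genes that act on blood vessels were called in both directions. Of 60 vasoactive mediator genes 4 were called higher and 2 lower in late lungs. Their median difference was -0.04, and 35 (58.3%) lay below 0. Of all features 1.61% were called higher, 2.43% were called lower and 50.4% lay below 0. Pgf and Agt were among the higher and Edn1 among the lower genes. They are drawn with other genes that were higher in late lungs.

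**Figure D3:**
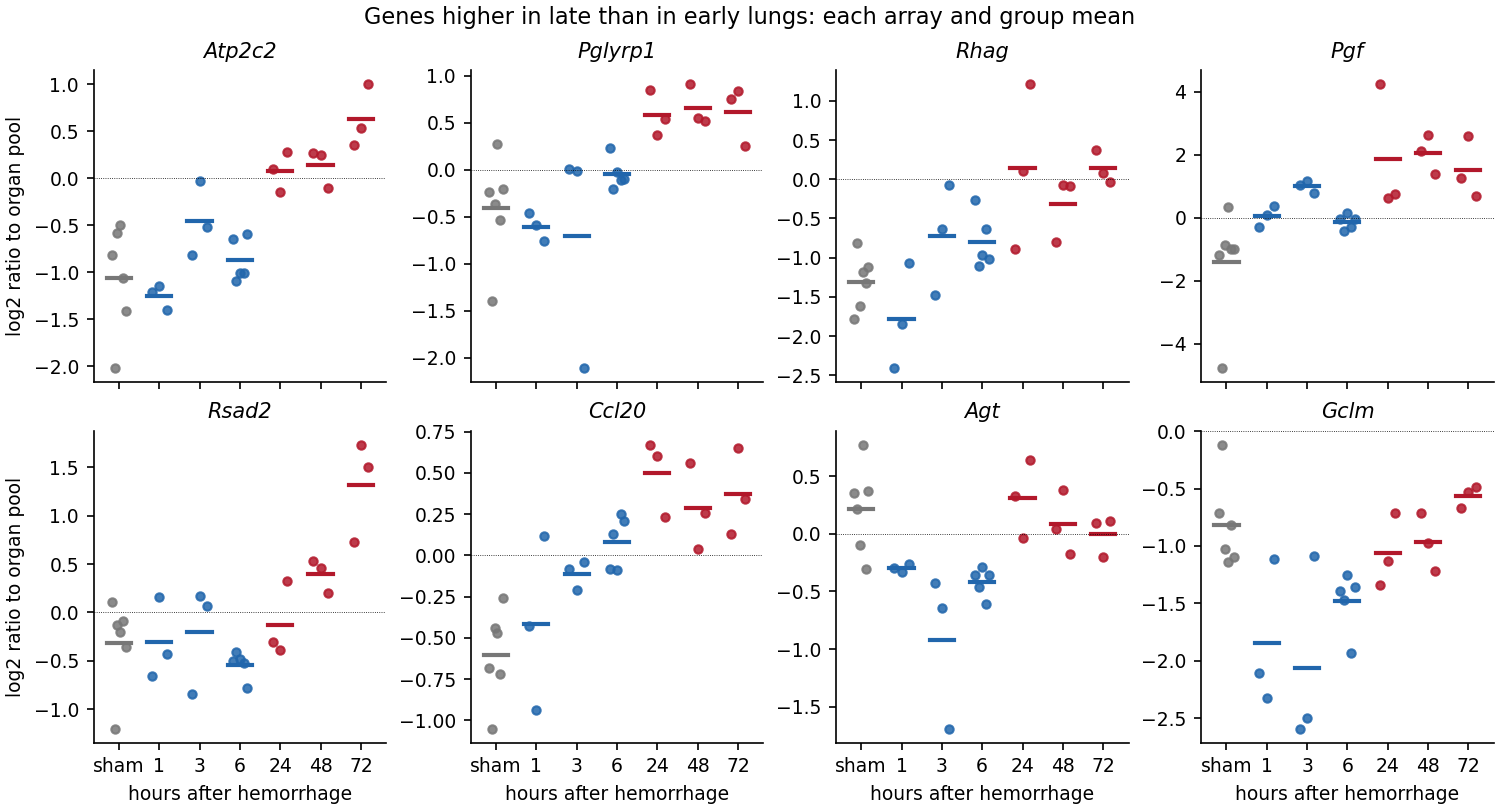
Level of 8 genes that were higher in late lungs, as the log2 ratio to the organ pool (y axis, scaled for each gene), by hours after hemorrhage with sham at the left (x axis). Points are arrays (blue for 1, 3 and 6 h, red for 24, 48 and 72 h, grey for sham) and bars are group means; every late array of Pglyrp1 and Agt lies above every early array, and for Agt and Gclm the sham mean lies near the late means.

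Pgf, a growth factor for vessels named after placenta, had a level of 0.62, 1.38 and 4.23 in late lungs, against -0.41, 0.09 and 1.17 in early lungs. The difference was 1.5 ± 0.38 (adjusted p = 0.0353), or 2.83-fold. Late arrays spread over more than 3 log2 units, and the 3 h arrays, with a mean of 0.99, lay above those of 1 and 6 h, with means of 0.06 and -0.13. The highest late arrays were 24 h replicate 1 at 4.23, 48 h replicate 2 at 2.62 and 72 h replicate 2 at 2.61. On the same arrays the neutrophil gene S100a9 was highest, at 5.39, 3.48 and 3.34. Whether Pgf varied apart from such genes was not tested. The Pgf call held in 10 of 20 omissions of 1 array, with the highest adjusted p (0.0697) without 72 h replicate 2. Agt, the precursor of angiotensin, had a level of -0.20, 0.09 and 0.64 in late lungs, against -1.69, -0.36 and -0.26 in early lungs, a difference of 0.68 ± 0.16 (adjusted p = 0.0287). The late and early arrays of Agt did not overlap, which held for 5 of the 6082 features (0.0822%), 3 of them with late above early (0.0493%) and 2 with late below (0.0329%). Its call held in 17 of 20 omissions (highest adjusted p 0.0620, without 24 h replicate 3).

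Alox15, a lipoxygenase of arachidonic acid, was higher by 0.93 ± 0.22 (adjusted p = 0.0301), with a mean of 0.83, 0.60 and 1.79 at 24, 48 and 72 h. Ptgis, prostacyclin synthase, was higher by 0.45 ± 0.12 (adjusted p = 0.0409) and was named after its value was seen. Edn1, the vasoconstrictor endothelin 1, was lower, with a difference of -0.71 ± 0.19 (adjusted p = 0.0435), and Adra1a, an adrenergic receptor that constricts vessels, stood at -0.69 ± 0.17 (adjusted p = 0.0329). Calls held in 15 of 20 omissions of 1 array for Alox15, 4 for Edn1 and 13 for Adra1a, with highest adjusted p-values of 0.0649, 0.0721 and 0.0649, each without 72 h replicate 3. Edn1 was also the called member of 12 lung endothelial genes, 9 of which lay below 0 with a median difference of -0.27. Kdr, a VEGF receptor of endothelium, stood at 0.29 (adjusted p = 0.312). Hsd11b2, which inactivates corticosterone, was higher by 0.71 ± 0.14 (adjusted p = 0.0174). It and Fgfr3 were the called members of 18 glucocorticoid-responsive genes, with a median of 0.06.

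Pglyrp1, a peptidoglycan recognition protein stored in neutrophil granules, had a level of 0.25, 0.55 and 0.91 in late lungs, against -2.11, -0.11 and 0.23 in early lungs. Each late array lay above each early array. The difference was 1.07 ± 0.22 (adjusted p = 0.0186), or 2.10-fold, and the call held in 20 of 20 omissions of 1 array. The 12 neutrophil genes as listed did not pass. Of them 9 lay above 0 with a median difference of 0.08, and their mean level per array was -0.01 to 1.23 in late and -0.01 to 0.50 in early lungs. Mmp8, neutrophil collagenase, led them at 1.5 ± 0.45 (adjusted p = 0.0669), with a mean of -0.19, 0.12 and 1.99 at 24, 48 and 72 h. S100a9, a part of the neutrophil protein calprotectin, ran from 0.68 to 5.39 with a median of 2.14 in late lungs, against 0.42 to 2.37 with a median of 1.42 in early lungs, and stood at 0.89 (adjusted p = 0.275). On 3 late arrays, 24 h replicate 1 at 5.39, 48 h replicate 2 at 3.48 and 72 h replicate 2 at 3.34, S100a9 lay above every early array. S100a8, the other part of calprotectin, stood at 0.08 (adjusted p = 0.881). Its median was 0.52 in late and 0.60 in early lungs.

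In the macrophage and lymphocyte lists 4 genes were called, and each was lower in late lungs. Over all features 2.43% were called lower and 1.61% higher. Ctsd and Ctss, lysosomal proteases abundant in macrophages, differed by -0.84 ± 0.17 (adjusted p = 0.0176) and -0.56 ± 0.15 (adjusted p = 0.0400). At 24 h the arrays stood at 0.97, 1.53 and 1.08 for Ctsd and 0.81, 0.29 and -0.05 for Ctss, within the early ranges. Ctsd and Ctss were the called members of 16 macrophage and monocyte genes. Of that list 9 lay above 0 and 7 below, and its median of 0.03 lay near that of all features. Ptprc, the gene of CD45 on all leukocytes, differed by -0.67 ± 0.15 (adjusted p = 0.0279). Klra22, a receptor of the Ly49 family known from natural killer cells, stood at -0.93 ± 0.26 (adjusted p = 0.0497), with its low late level set at 24 h, where the mean was -2.53, against -0.49 and -0.18 at 48 and 72 h. Both came from a list of 28 lymphocyte genes with a median of -0.04, of which 12 lay above 0 and 16 below. Klrh1, a killer cell lectin-like receptor gene outside that list, was called higher at 0.98. It kept its call in each omission of 1 array and was named after its value was seen. Calls held in 20 of 20 omissions for Ctsd, 5 for Ctss, 18 for Ptprc and 2 for Klra22. The highest adjusted p-values for Ctss, Ptprc and Klra22, 0.0858, 0.0602 and 0.105, each came without 24 h replicate 3.

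Cytokines, chemokines and targets of NF-kB made up a list of 56 genes, with a median difference of 0.01. Called were 2 higher and 1 lower, beside 1.61% and 2.43% of all features. Ccl20, a chemokine that draws lymphocytes and dendritic cells, had a level of 0.04, 0.34 and 0.67 in late lungs, against -0.94, -0.08 and 0.25 in early lungs, a difference of 0.53 ± 0.14 (adjusted p = 0.0433). Il5, a cytokine of eosinophils, was higher by 0.48 ± 0.13 (adjusted p = 0.0476), while its 24 h arrays, at -0.20, -0.17 and -0.40, lay within the early range. Ifng, interferon gamma, was lower, at -0.65 ± 0.16 (adjusted p = 0.0329), with a mean of 0.99 at 24 h and of -0.24 and -0.21 at 48 and 72 h. The 24 h arrays of Ifng thus lay at the early level, where the means were 0.88, 0.89 and 0.72. Calls held in 4 of 20 omissions for Ccl20 and 3 for Il5 (highest adjusted p 0.0993 and 0.0947, without 48 h replicate 1), and in 14 for Ifng (0.0665, without 72 h replicate 2).

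Interferon-stimulated and antigen presentation genes, 24 in number, held a called gene on each side. Rsad2 (viperin), an antiviral protein induced by interferon, had a level of -0.39, 0.46 and 1.73 in late lungs, against -0.84, -0.48 and 0.17 in early lungs. The difference was 0.88 ± 0.18 (adjusted p = 0.0174). Its means of -0.13, 0.40 and 1.32 at 24, 48 and 72 h were highest at 72 h. B2m, the light chain of MHC class I, had a level of -0.77, 0.34 and 1.77 in late lungs, against 0.13, 1.96 and 2.72 in early lungs, a difference of -1.32 ± 0.32 (adjusted p = 0.0329). B2m was high at 1 and 3 h, with means of 2.29 and 2.37, and at 0.89 at 6 h. The Rsad2 call held in 20 of 20 omissions of 1 array and that of B2m in 13 (highest adjusted p 0.0679, without 72 h replicate 3).

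A red cell membrane gene and a globin gene were higher in late lungs. Rhag, the Rh-associated glycoprotein of red cell membranes, had a level of -0.89, -0.03 and 1.21 in late lungs, against -2.41, -1.02 and -0.07 in early lungs. The difference was 1.09 ± 0.26 (adjusted p = 0.0301), and the call held in 16 of 20 omissions of 1 array (highest adjusted p 0.0584, without 24 h replicate 3). Rhag was the called member of 13 erythroid and platelet genes, 8 of which lay above 0 with a median of 0.07. Hba-a3, a hemoglobin alpha chain outside that list, was called at 0.79 ± 0.20 (adjusted p = 0.0347), and Alas2, which starts heme synthesis in red cell precursors, stood at 0.72 (adjusted p = 0.0563). Both were named after their values were seen. How much blood each lung held was not measured.

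Redox genes were called in both directions. Gpx4, which reduces lipid peroxides in membranes, had a level of -1.27, -0.23 and 0.43 in late lungs, against 0.05, 0.45 and 1.35 in early lungs. Its difference was -1 ± 0.18 (adjusted p = 0.0101), with means of 0.85, 0.91 and 0.25 at 1, 3 and 6 h, and -0.02, -0.23 and -0.74 at 24, 48 and 72 h. The selenoproteins Selenom, of the endoplasmic reticulum, and Gpx3, the plasma glutathione peroxidase, differed by -0.74 ± 0.15 (adjusted p = 0.0176) and -0.59 ± 0.15 (adjusted p = 0.0393). At 24 h the arrays stood at -0.31, 0.29 and -0.38 for Selenom and -0.10, -0.58 and -0.74 for Gpx3, within the early ranges. Gclm, the modifier subunit of the enzyme that starts glutathione synthesis, had a level of -1.34, -0.71 and -0.49 in late lungs, against -2.59, -1.47 and -1.09 in early lungs, a difference of 0.93 ± 0.20 (adjusted p = 0.0220). These 4 were the called members of 42 oxidative stress genes, whose median of -0.04 lay near that of all features. Calls over all features were 4.04%. Gpx4, Selenom and Gclm kept the call in 20 of 20 omissions of 1 array, and Gpx3 in 9 (highest adjusted p 0.0843, without 24 h replicate 3).

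Genes that make, fold and degrade protein lay mostly below 0. Of 51 ribosomal protein genes 43 (84.3%) did so, with a median difference of -0.41, the lowest of the 32 lists. Of them 3 were called lower and 0 higher, beside 2.43% and 1.61% of all features, 50.4% of which lay below 0. Rps2 stood at -1 ± 0.22 (adjusted p = 0.0231), Rps14 at -0.87 ± 0.22 (adjusted p = 0.0345) and Rpl36 at -0.82 ± 0.20 (adjusted p = 0.0323). The list's mean level was 0.60 ± 0.45 in sham lungs, 1.21 ± 0.31, 1.53 ± 0.45 and 0.62 ± 0.25 (SD over arrays) at 1, 3 and 6 h, and 1.14 ± 0.61, 0.76 ± 0.76 and 0.36 ± 0.47 at 24, 48 and 72 h. Late lungs at 24 h thus lay at the level of 1 h, and the 6 h lungs below it. Per array the list ran from -0.07 to 1.59 in late and from 0.36 to 2.05 in early lungs. Calls held in 19, 9 and 14 of 20 omissions for Rps2, Rps14 and Rpl36, with highest adjusted p-values of 0.0501 without 48 h replicate 1, 0.0732 without 72 h replicate 3 and 0.0691 without 24 h replicate 3.

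Proteasome genes (31), mitochondrial respiratory chain genes (45) and heat shock and chaperone genes (36) each had 1 called member, and it was lower. The medians were -0.18, -0.18 and -0.16, with 22, 32 and 23 members below 0. Psmb7, a catalytic subunit of the proteasome, differed by -1.03 ± 0.26 (adjusted p = 0.0345), and Atp5pb, a subunit of ATP synthase, by -0.67 ± 0.16 (adjusted p = 0.0294). Hspe1, the mitochondrial co-chaperonin, had a level of -0.83, -0.47 and 0.81 in late lungs, against -0.26, 0.88 and 1.28 in early lungs, a difference of -1.02 ± 0.21 (adjusted p = 0.0176). Its means were 0.96, 1.07 and 0.10 at 1, 3 and 6 h. The call held in 20 of 20 omissions for Hspe1, 12 for Psmb7 and 16 for Atp5pb (highest adjusted p 0.0719 without 24 h replicate 3 and 0.0626 without 48 h replicate 1). None of 27 translation factor genes passed, where limma gave Eif3c, a subunit of an initiation factor, the smallest p at -0.67 (adjusted p = 0.0643).

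Cell cycle genes had the highest median of the 32 lists, 0.16, with 25 of 38 members above 0. Called were 3, all higher, beside 1.61% of all features called higher. Cdk4, a kinase of entry into the cycle, differed by 0.74 ± 0.18 (adjusted p = 0.0301). Cdk7, a kinase that activates other cycle kinases, differed by 0.70 ± 0.15 (adjusted p = 0.0219), and Nasp, a histone chaperone, by 0.47 ± 0.12 (adjusted p = 0.0347). Calls held in 20 of 20 omissions for Cdk7, 14 for Cdk4 (highest adjusted p 0.0649, without 72 h replicate 3) and 9 for Nasp (0.0776, without 48 h replicate 1). Of 34 apoptosis and p53 target genes, Casp2, an apoptotic protease, was higher at 0.75 ± 0.21 (adjusted p = 0.0497) and Aifm1, a mitochondrial death factor, was lower at -0.67 ± 0.14 (adjusted p = 0.0186), with a list median of 0.03. Casp2 kept its call in 4 of 20 omissions (highest adjusted p 0.0956, without 1 h replicate 2) and Aifm1 in 20. Tubg1 (gamma tubulin, of the centrosome) and Mre11 (DNA break repair) were the features whose late arrays all lay below the early ones. Tubg1 had a level of -0.70, -0.43 and -0.05 in late lungs, against 0.00, 0.13 and 0.55 in early lungs (adjusted p = 0.0101). Mre11 had -2.59, -1.69 and -1.41 in late lungs, against -1.39, -0.87 and -0.44 in early lungs (adjusted p = 0.0110). Both were named after their values were seen.

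Clock and immediate early genes bear on the time of day and on the first response to stress. Of 17 clock genes 1 was called. Nr1d2, a repressor of the clock, had a level of -1.36, -0.90 and 0.00 in late lungs, against -0.83, 0.11 and 0.48 in early lungs, a difference of -0.80 ± 0.20 (adjusted p = 0.0347). Its partner Nr1d1 stood at -0.07 (adjusted p = 0.801), Per2 at -0.16 (adjusted p = 0.737), Dbp at 0.17 (adjusted p = 0.789) and Bmal1 at -0.32 (adjusted p = 0.170), while Cry2, a core repressor, stood at 0.85 (adjusted p = 0.0541). Of 30 immediate early genes Jun, a subunit of AP-1, was lower at -0.61 ± 0.16 (adjusted p = 0.0387), and the list median was -0.10. The Nr1d2 call held in 8 of 20 omissions of 1 array (highest adjusted p 0.0735, without 72 h replicate 3) and that of Jun in 7 (0.0777, without 72 h replicate 2).

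Matrix, complement and metabolic lists added single genes. Mmp13, a collagenase, was higher at 0.58 ± 0.16 (adjusted p = 0.0495) and Mmp23, a membrane protease, lower at -0.77 ± 0.19 (adjusted p = 0.0329), of 48 matrix genes. Their list median was -0.01, and of all features 1.61% were called higher and 2.43% lower. The 24 h arrays of Mmp13, at 0.06, 0.49 and 0.01, lay within its early range. C1s, a protease that starts the complement cascade, was lower at -0.91 ± 0.23 (adjusted p = 0.0345), the called member of 37 coagulation, complement and acute phase genes with a median of 0.09. Pfkfb2, which sets the level of a glycolytic activator, was lower at -0.58 ± 0.12 (adjusted p = 0.0213) and, with Edn1, made up the calls among 39 hypoxia and glycolysis genes. Calls held in 5, 14, 9 and 20 of 20 omissions for Mmp13, Mmp23, C1s and Pfkfb2, with highest adjusted p-values for the first 3 of 0.101 without 72 h replicate 3, 0.0665 without 72 h replicate 2 and 0.0709 without 24 h replicate 3.

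Lists of other tissues and cell types show what else the lung pieces could hold. Liver genes (33) had a median difference of -0.20, with a mean level per array of -1.01 to 0.09 in late and -0.68 to 0.13 in early lungs. Cyp1a2, a cytochrome best known from liver, was their called member at -1.33 ± 0.34 (adjusted p = 0.0347), with the call held in 9 of 20 omissions of 1 array (highest adjusted p 0.0719, without 24 h replicate 3), while Alb, Hp and Apob were not called (adjusted p = 0.510, 0.494 and 0.219). Of 20 heart and skeletal muscle genes, Myl2, a ventricular light chain, was lower at -0.95 ± 0.22 (adjusted p = 0.0301), and Myh6 stood at 0.06. The Myl2 call held in 14 of 20 omissions (highest adjusted p 0.0638, without 72 h replicate 3). Of 8 adipose genes, Lep, leptin, was lower at -1.02 ± 0.21 (adjusted p = 0.0186, 10 of 11 early arrays), and Fabp4 stood at -0.59 (adjusted p = 0.0797). Of 15 mast cell genes and 27 smooth muscle and fibroblast genes 0 were called. Mcpt10, a mast cell protease, stood at 0.78 (adjusted p = 0.0812) and Eln, elastin, at -0.60 (adjusted p = 0.0910), and their medians were 0.00 and -0.08. The part of other tissues in the results above was not tested.

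**Figure D4:**
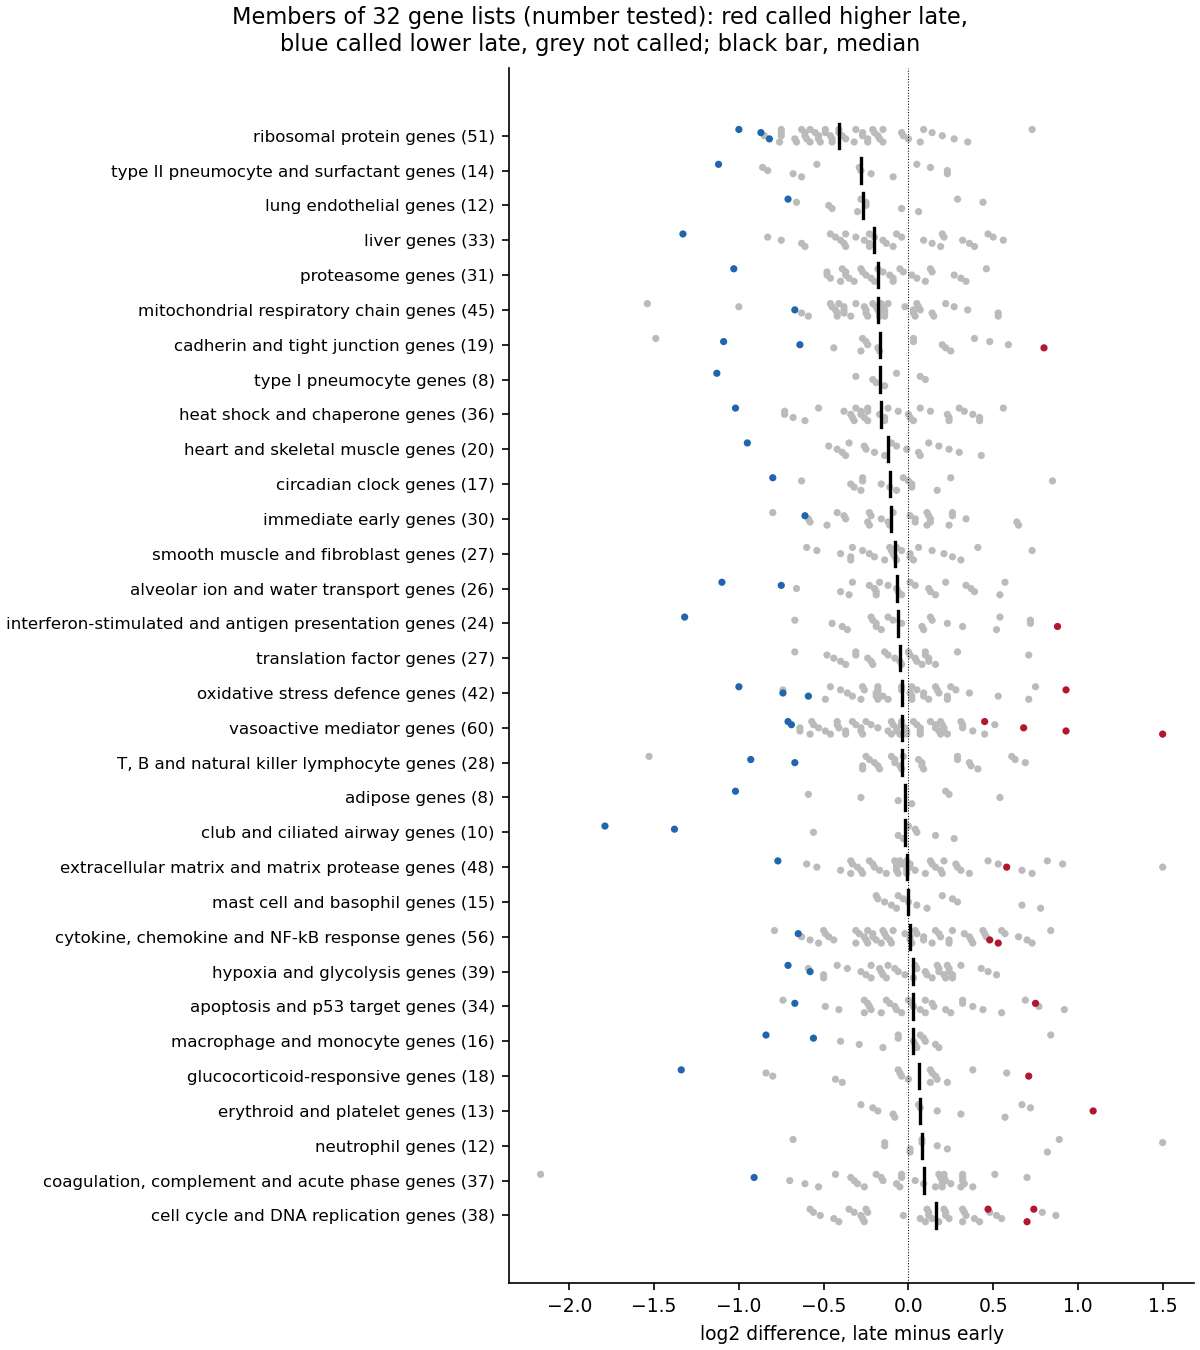
Difference of late minus early lungs in log2 units (x axis) for each tested member of 32 gene lists (rows, with the number tested), sorted by the list median (black bar). Red members were called higher and blue members lower in late lungs; the ribosomal protein genes have the lowest median (-0.41) and the cell cycle genes the highest (0.16), and most lists hold 0 to 3 called members.

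Over the 32 lists, 51 of 835 tested genes (6.11%) were called, 16 higher and 35 lower, beside 4.04% of all features. The lists were chosen with earlier results of these data known, so this share is no independent evidence about them.

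The largest differences with a symbol also included genes outside these lists. Among the higher were Atp2c2, a pump for calcium and manganese of the secretory pathway, As3mt, which methylates arsenic, and Fhip2a. Atp2c2 had the smallest p of all features. Its level was -0.15, 0.27 and 1.00 in late lungs, against -1.40, -1.01 and -0.03 in early lungs, a difference of 1.14 ± 0.14 (adjusted p = 0.00105). All but 1 of the early arrays, from 3 h, lay below every late array. As3mt had a level of -0.47, 0.16 and 0.68 in late lungs, against -2.95, -1.25 and -0.34 in early lungs, a difference of 1.53 ± 0.29 (adjusted p = 0.0154). Fhip2a had -1.10, -0.57 and 0.21 in late lungs, against -4.49, -1.59 and -1.12 in early lungs, a difference of 1.42 ± 0.32 (adjusted p = 0.0231), and its late arrays all lay above the early ones.

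Also among the 12 largest higher genes were Prl4a1 (prolactin family, 1.15), Cyp11b2 (aldosterone synthase, 1.14), Kcnj12 (potassium channel, 1.13), Mocs3 (molybdenum cofactor synthesis, 1.03), Cst8 (cystatin family, 1.03) and Pitx3 (transcription factor of lens and dopaminergic neurons, 1.01), with adjusted p-values of 0.0101 to 0.0468. Mocs3 and Cst8 had no value on 1 early array each. Calls held in 5 of 18 omissions for Mocs3 (highest adjusted p 0.0868, without 1 h replicate 2), and in 11 of 20 for Cyp11b2 and 16 for Pitx3 (0.0727 and 0.0620, without 24 h replicate 3). Among the lower were Pth2r (receptor of the parathyroid hormone family, -1.39), Defa24 (defensin, -1.33), Cux1 (transcription factor, -1.24), Slc18a3 (vesicular acetylcholine transporter, -1.20), Ddx39b (RNA helicase of splicing and export, -1.19), Rab7a (GTPase of late endosomes, -1.14) and Pzp (protease inhibitor of the macroglobulin family, -1.13), with adjusted p-values of 0.0101 to 0.0433. Calls held in 6 of 20 omissions for Pth2r (highest adjusted p 0.0918, without 48 h replicate 1), 13 for Pzp (0.0624, without 72 h replicate 3), 14 for Rab7a (0.0662, without 24 h replicate 3) and 19 for Cux1 (0.0505, without 72 h replicate 2). Of the 69 named genes that were called, 28 kept the call in each omission in which they could be tested. Ube3a, a ubiquitin ligase named after its value was seen, was called at 0.78 (adjusted p = 0.0154).

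The called features had different time courses on the early and on the late side. Relative to the early mean, the 98 higher features had medians of -0.04, -0.13 and 0.22 at 1, 3 and 6 h, and 0.53, 0.77 and 0.98 at 24, 48 and 72 h. The 148 lower features had 0.17, 0.05 and -0.19, and then -0.71, -0.73 and -0.91. These features were chosen on these arrays, so their values at those times are a description. At 16 h, which was not used to choose them, the medians were 0.34 and -0.48, between the 6 h and the 24 h values. In sham lungs, also not used to choose them, the medians were 0.23 (quartiles -0.01 and 0.46) and 0.04 (-0.17 and 0.24). For the higher features sham thus lay near the 6 h value, above the early mean. That early mean was itself used in the choice, and both the 16 h and the sham values are taken relative to it. The choice alone can therefore shift them towards the late side. The late value farthest from the early mean fell at 24, 48 and 72 h for 11, 23 and 64 of the higher and for 41, 22 and 85 of the lower features. The 3 late means lay all on one side of the 3 early means for 188 of the 246 features, and for 957 of all 6082 (15.7%).

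**Figure D5:**
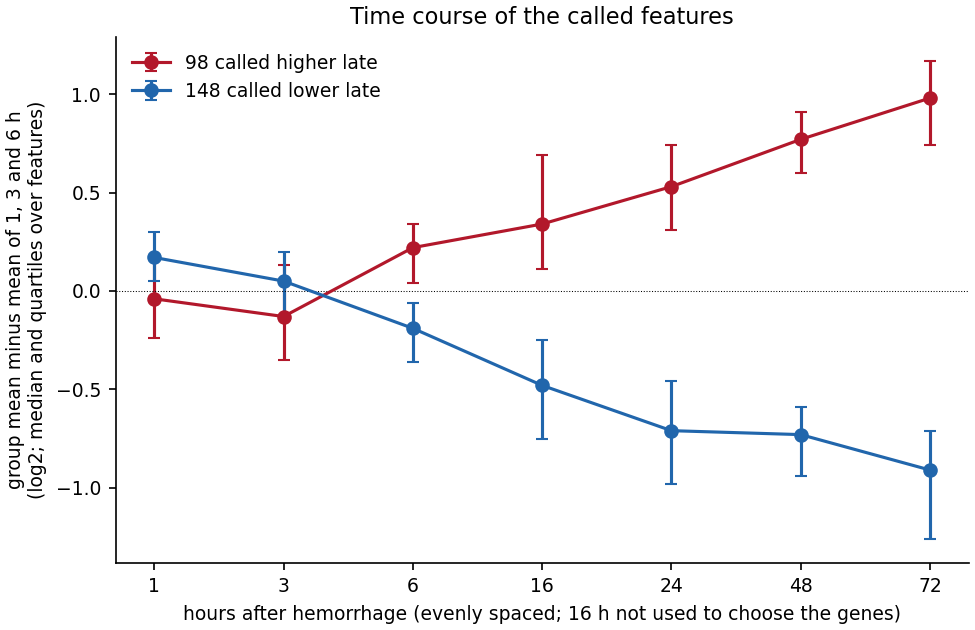
Median over features (points) and quartiles (bars) of the group mean minus the mean of 1, 3 and 6 h, in log2 units (y axis), by hours after hemorrhage on an evenly spaced axis (x axis), for the 98 features called higher (red) and the 148 called lower (blue) in late lungs. The 16 h lungs, not used to choose the features, lie between the 6 h and 24 h lungs in both sets. All values are relative to the early mean, which was used in the choice and can shift 16 h towards the late side.

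Few features could be told apart within a phase. Among 24, 48 and 72 h limma's F test called 1 feature (0.0164% of 6082; 654 with an unadjusted p under 0.05), Rhbdl2, a rhomboid protease (adjusted p = 0.0448). Its means were -4.92, -1.16 and -1.13 at 24, 48 and 72 h, over 8 of 9 late arrays. Among 1, 3 and 6 h it called 1 (0.0164%; 1113 unadjusted), Clrn1, a membrane protein of hair cells (adjusted p = 0.0184), with means of -0.70, -3.54 and -0.71. Both calls rest on very low levels at a single time. Rhbdl2 kept its call in 4 of the 16 omissions that allowed its test (highest adjusted p 0.113, without 72 h replicate 2). Clrn1 kept it in 18 of 20, and lost it without 3 h replicate 1 and without 3 h replicate 2 (highest adjusted p 0.0686, without replicate 2). Over the 20 omissions of 1 array the counts were 0 to 6 among early and 0 to 2 among late times. Clrn1 was also called late against early, at 1.25 ± 0.25 (adjusted p = 0.0176), where its low 3 h level is part of the early mean. Its arrays stood at -1.14, -1.26 and -0.52 at 24 h and at 0.25, 0.19 and 0.34 at 72 h.

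Sham lungs place the late and early levels. In a fit over all 32 arrays, 411 of 6056 features (6.79%) were called for late minus sham, 148 higher (2.44%) and 263 lower (4.34%), and 0 (0%) for early minus sham. For early minus sham 989 had an unadjusted p under 0.05, the lowest adjusted p was 0.0535, and 1 feature passed without sham replicate 2, 64 without sham replicate 4 and 28 without 3 h replicate 3. On sham replicate 2 liver genes had a mean level of 2.40, and lung genes were low. Late minus sham and early minus sham share the sham arrays, and passing in one and not in the other is not a test of their difference, which is the comparison above.

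The 20 genes set against sham were chosen after their values were seen, and early minus sham was called for 0 of them, with values of -0.97 to 1.72. Pgf had the highest, at 1.72 ± 0.53 (adjusted p = 0.124), and stood at 1.05 (adjusted p = 0.169) without sham replicate 2 and 16 h replicate 3. Atp2c2 stood at 1.35 ± 0.20 for late minus sham (adjusted p = 0.000398) and 0.20 ± 0.20 for early minus sham (adjusted p = 0.634). Fgfr3 stood at -1.43 ± 0.22 (adjusted p = 0.000398) and -0.08 ± 0.21 (adjusted p = 0.870). Ccl20 stood at 0.99 ± 0.17 (adjusted p = 0.00132) and 0.46 ± 0.17 (adjusted p = 0.187), and Cdh1 at -1.58 ± 0.25 (adjusted p = 0.000616) and -0.48 ± 0.24 (adjusted p = 0.320). Ctsh and Fmo2 were also lower than sham when late, at -1.02 ± 0.19 (adjusted p = 0.00262) and -1.27 ± 0.34 (adjusted p = 0.0251). Rhag was higher at 1.29 ± 0.26 (adjusted p = 0.00434), and Rsad2 at 0.84 ± 0.21 (adjusted p = 0.0180).

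Agt and Gclm had the other pattern. Agt stood at -0.08 ± 0.19 for late minus sham (adjusted p = 0.841) and -0.76 ± 0.19 for early minus sham (adjusted p = 0.0835). Gclm stood at -0.04 ± 0.24 (adjusted p = 0.947) and -0.97 ± 0.23 (adjusted p = 0.0822). For these genes, chosen after their values were seen, the estimate lay farther from sham early than late, although neither early difference was called. With 1 array left out, early minus sham was called in 0 of 32 omissions for Agt and 2 for Gclm.

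A few late minus sham calls turned on sham replicate 2 and 16 h replicate 3, a pair of arrays with high liver genes. Without both, Scgb1a1 was called at -1.75 (adjusted p = 0.0112), against -0.67, not called, with them. Hopx was called at -0.97 (adjusted p = 0.0459), against -0.37 (adjusted p = 0.664), and Atp1b1 at -1.03 (adjusted p = 0.0148), against -0.84 (adjusted p = 0.0671). Pglyrp1 stood at 0.83 (adjusted p = 0.0513), against 1.03 (adjusted p = 0.0207). Pgf stood at 2.55 (adjusted p = 0.000905), against 3.22 (adjusted p = 0.00113). Early minus sham of Scgb1a1 was -0.38 without both and 0.70 with them, neither called.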

How the data were processed

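Arrays with 2 dyes set lung RNA beside pooled organ RNA, and per the labels RNA was isolated with TRI Reagent. The deposited values are log2 ratios, which the authors normalized in a way not given in the sources used here, nor are the scanner and the dye of each channel. The sign of the ratio was read from lung genes, which lie above the pool. Which shift of all genes the authors' processing removed cannot be seen. With neither slide nor scan date stated, no batch could be examined.

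Each array's median (-0.38 to 0.03) was subtracted, and spots of a gene were averaged; spots without a symbol were averaged by accession or as neighbouring pairs, which gave 6223 features. Symbols came from the platform annotation, and 5006 of 5022 Entrez identifiers were in a current rat gene table. Features measured by 2 or more arrays in every group entered limma 3.58.1 in R 4.3.3 (lmFit, eBayes, two-sided, 14 residual degrees of freedom, statmod 1.5.0 for array weights). Late minus early used the 20 arrays and 6 group means, and sham comparisons used all 32 arrays. P-values were adjusted by Benjamini-Hochberg over all features. The calculation was tested on simulated data.

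Named genes were, of those called with 3 late means on one side of 3 early means, the 12 largest in each direction, for each list its 4 called genes with the smallest p at most, or 1 uncalled gene where no call was made, and the 4 with the smallest p in each test within a phase. The members, lists and tests were chosen with earlier results of these data known. Alternatives were other centring, filters, weights, fits and omissions of arrays and times.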

Additional observations from a re-analysis of the deposited data

Results flagged for a closer look

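In the groups of 4 to 10 arrays, the array at an end was flagged when its gap to the next was large for the group's range. This was examined in 99 groups, the 6 h arrays of the 79 genes named by rule and the sham arrays of the 20 genes set against sham. Sham arrays of other genes were not examined. Of these groups 11 were flagged. A chance rate of about 1 in 20 would hold for independent groups. These groups share arrays, and the sham genes were chosen after their values were seen, so that rate is no yardstick here. Among the 6 h arrays, Hopx stood at 1.47 on replicate 1, against 2.66 to 2.85 on the others, and Mcpt10 at -0.16 on replicate 5, against 0.17 to 0.25. On 6 h replicate 3 Hspe1 stood at 0.99, against -0.26 to -0.02, and Rhbdl2 at -2.86, against -1.73 to -1.32.

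Sham replicate 2, the array with high liver genes, held 6 of the 7 sham flags. On it Pgf stood at -4.77 (others -1.19 to 0.35), Rsad2 at -1.20 (-0.36 to 0.11), Fmo2 at 0.12 (2.13 to 2.77), Scgb1a1 at -3.10 (2.52 to 3.96), Ctsh at 0.29 (1.24 to 1.56) and Hopx at -1.02 (2.03 to 3.13). On sham replicate 1 Lep stood at 0.69 (others -0.83 to -0.66). No sham array enters the late minus early difference.

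The times within a phase differed for 2 genes by limma's F test: Clrn1 among 1, 3 and 6 h (adjusted p = 0.0184) and Rhbdl2 among 24, 48 and 72 h (adjusted p = 0.0448).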

How the results depend on the processing

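For late minus early, limma called 246 features; the cause of each change below was not tested. It called 231 without centring, 335 with quantile normalization, 242 to 293 with other filters on missing values, 255 per sequence accession, 250 with ratios at or below 0.05 set to missing, 242 with a robust spread and 196 with all 32 arrays in the fit. Array weights gave 599 (238 shared with the 246), with limma's gene-by-gene weights, taken after the default was seen not to converge. Equal weight per array gave 83, in a fit with 1 mean for all late and 1 for all early arrays. That fit also counts differences between times as spread, so more than the weight changed. Without the 1, 6, 24, 48 or 72 h arrays the counts were 17, 25, 569, 61 and 5. Leaving out 1 array gave 88 to 439.

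Among 1, 3 and 6 h (1 call) the count was 2 with a value on every array, 0 with low ratios missing, 237 with array weights, 0 with all 32 arrays and 0 to 6 with 1 array left out. Among 24, 48 and 72 h (1 call) it was 2 not centred or with quantile normalization, 0 with either filter on missing values or with low ratios missing, 5 with array weights, 4 with all 32 arrays and 0 to 2 with 1 array left out. Late minus sham (411) gave 1048 with array weights and 249 to 518 with 1 array left out. Early minus sham (0) gave 7 with quantile normalization, 17 with low ratios missing, 536 with array weights, 2 with a robust spread, 5 without sham replicate 2 and 16 h replicate 3, and 0 to 64 with 1 array left out.

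Replicate numbers are shared between times, and with the number as a replicate block late minus early gave 52 calls, among 1, 3 and 6 h 0, and early minus sham 11. With the block, 46 of the named genes lost the late minus early call. Deviations of same-numbered arrays correlated at -0.394 to 0.333 (median -0.00614), and 4 of 20 arrays correlated best with their own number. These values show no pairing, but deviations from the means of so few arrays could miss one. Whether the numbers pair the samples is therefore not known, and no call was judged by the block.

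Signs turned only for values that were not called. Late minus early of Rhbdl2, Slc22a8 and Cdh13 became 0.25, 0.05 and 0.14 without the 24 h arrays, Pacsin1 became -0.11 without the 1 h arrays and Pvalb 0.05 without the 72 h arrays. For early minus sham, Adcy4 became -0.07 and Ctsh -0.13 with quantile normalization, Atp2c2 -0.01, Fgfr3 0.06 and Ctsh -0.01 with array weights, and Pglyrp1 0.06 and Adcy4 -0.12 with the replicate block. For late minus sham, Agt became 0.03 and Gclm 0.14 with array weights. Without sham replicate 2 and 16 h replicate 3, late minus sham of Gclm became 0.10, and early minus sham became -0.38 for Scgb1a1 and -0.08 for Ctsh. With 1 array left out, early minus sham ran from -0.04 to 0.13 (Adcy4), -0.08 to 0.17 (Ctsh), -0.24 to 0.19 (Pglyrp1), -0.22 to 0.07 (Rsad2) and -0.38 to 1.04 (Scgb1a1), and late minus sham from -0.19 to 0.03 (Agt) and -0.11 to 0.10 (Gclm).

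The arrays give ratios without signal over background, so how near a gene lies to background is unknown here; 0.41% of values lay at the lowest ratios. Calls of a named gene that hold in few omissions should be read as near the threshold.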
